A study of Macaca mulatta with 6 samples.

Results

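The 9 genes described here encode receptors through which nerves and local mediators set airway tone, gland secretion and vessel calibre: CHRM1, CHRM2, CHRM3, ADRA1A, ADRB1, VIPR1, VIPR2, HRH1 and TACR1. They were taken by symbol from a count table of 28536 genes, and all 9 were found and had enough counts to be tested. Tracheal tissue of rhesus monkeys (Macaca mulatta) was sequenced in 6 libraries. The control group held 3 libraries after normal saline, and the treated group held 3 libraries after an airway lubricant carrying an Oxy@Lipo/Gel coat. The labels place that group in a model of intubation under general anesthesia and do not state whether the saline animals were intubated as well. They name no sex, age or strain. They call each replicate a biosample but do not state that it is a separate animal. The p-values thus measure only the spread between these libraries, which may not be the spread between animals. The tissue given for each library is a catheter and RNA extraction is described for cell lines, while the treatment text names tracheal tissue.

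Of the receptor genes, 6 were several-fold more abundant in the Oxy@Lipo/Gel libraries than in the controls on average, and 3 differed little. The muscarinic genes CHRM2 and CHRM3 had the largest differences, with log2 fold changes of 4.54 ± 0.93 and 4.21 ± 0.94 (SE). TACR1, the substance P receptor gene, was low in all 3 controls and above them in all 3 Oxy@Lipo/Gel libraries. ADRA1A and VIPR2 were high in Oxy@Lipo/Gel replicates 2 and 3, and in replicate 1 they lay within the control range. None of the 9 genes passed an adjusted p of 0.05 in the edgeR quasi-likelihood test over all genes, and TACR1 came nearest with an adjusted p of 0.0506.

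As background, parasympathetic nerves release acetylcholine, which contracts airway smooth muscle through the Gq-coupled M3 receptor and drives gland secretion through M3 and M1. The Gi-coupled M2 receptor is the more abundant subtype in airway smooth muscle and also restrains acetylcholine release from nerve endings. Beta-adrenergic and VIP receptors couple to Gs and relax the muscle through cyclic AMP, while alpha-1 receptors, the histamine H1 receptor and the tachykinin NK1 receptor act through Gq on muscle, vessels, glands or endothelium.

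The libraries held 17097177 to 23405294 counts. By these raw totals 3 counts correspond to 0.128 to 0.175 CPM (counts scaled to a common library total). All other CPM values use TMM-adjusted library sizes, on which the 3 counts of CHRM2 in control replicate 2 correspond to 0.204 CPM. The libraries differed in what they held of the tissue. Genes of multiciliated epithelium were present in every library, with a summed level of 863 CPM in control replicate 2 and 2545 to 5935 CPM in the others. Smooth muscle genes summed to 1627 to 4811 CPM in the controls, to 3267 CPM in Oxy@Lipo/Gel replicate 1, and to 25908 and 36152 CPM in replicates 2 and 3. Chondrocyte genes summed to 49.6, 83.1 and 322 CPM in the controls and to 1251, 862 and 384 CPM in the Oxy@Lipo/Gel libraries. Of these genes 3 of 13 passed the edgeR threshold as higher, where 0.851% of all genes did. Basal and squamous epithelium genes summed to 2557 to 13045 CPM in the controls and to 1979 to 4244 CPM in the others. Of these 0 of 11 passed in either direction, where 0.685% of all genes passed as lower. Thyroid follicle genes summed to 5624 CPM in control replicate 3 and to 15.8 to 34.6 CPM in the other 5 libraries. In such bulk tissue, more cells of a type and more RNA per cell cannot be told apart.

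Levels of different receptors were compared in FPKM, which the authors scaled to gene length and library total. In the controls ADRB1 and VIPR1 were the most abundant of the 9 genes, at 7.90 ± 1.62 and 5.62 ± 0.745 FPKM (mean ± SD, n = 3 here and below), and their ranges overlapped. HRH1 followed at 3.22 ± 0.874 and VIPR2 at 0.797 ± 0.304 FPKM, each apart from its neighbours in all 3 libraries. The remaining 5 genes lay close together without a clear order, from 0.249 ± 0.162 FPKM for CHRM1 to 0.0972 ± 0.0872 FPKM for CHRM2. In the Oxy@Lipo/Gel libraries ADRB1 and VIPR1 were again at the top, at 11.9 ± 4.31 and 7.59 ± 1.24 FPKM. The other 7 genes ran from 3.38 ± 2.56 FPKM for CHRM3 to 1.26 ± 0.821 FPKM for TACR1, and each overlapped the next in the order. Averaged over the 6 libraries, ADRB1 lay above 68% of the tested genes and TACR1 above 17.4%, the extremes among the 9.

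**Figure D1:**
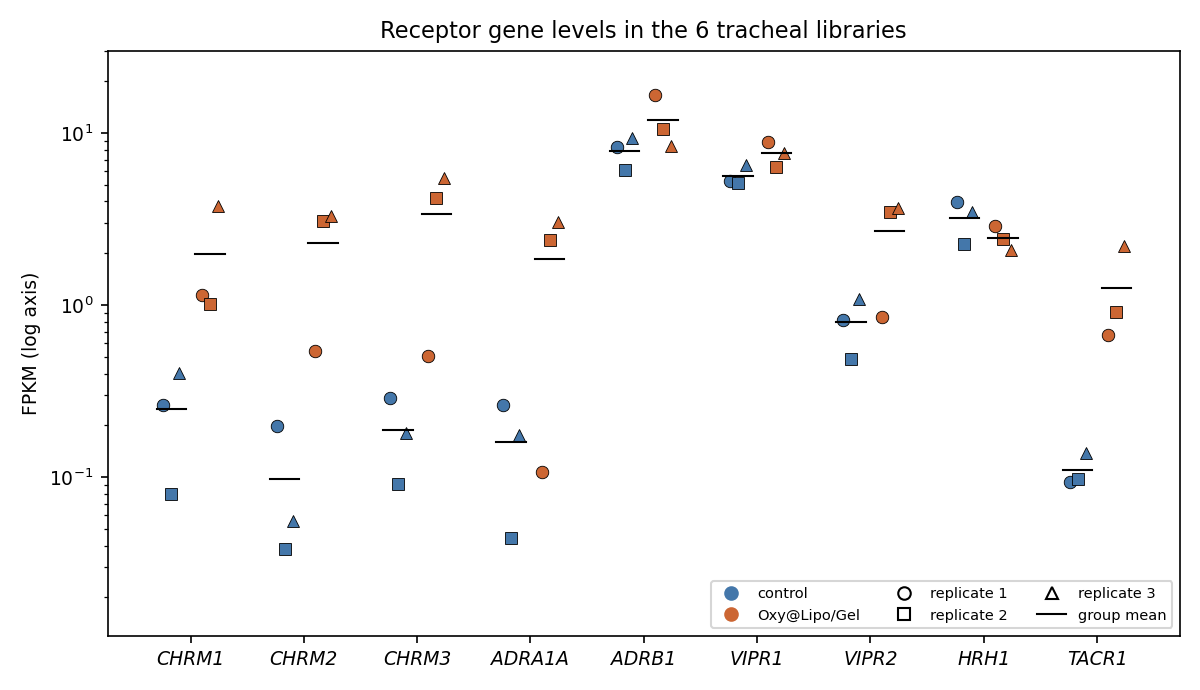
FPKM of the 9 receptor genes in each library on a log axis, with controls in blue, Oxy@Lipo/Gel libraries in orange, a symbol for each replicate number and a bar at each group mean. ADRB1, VIPR1 and HRH1 stay within a narrow range, while CHRM1, CHRM2, CHRM3 and TACR1 lie higher in each Oxy@Lipo/Gel library than in each control.

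Group differences were tested on the counts over all 18676 genes with enough reads. In edgeR 0 of 9 receptor genes passed in either direction, where 0.851% of all genes passed as higher and 0.685% as lower. At an unadjusted p of 0.05, 7 of the 9 were higher and 0 lower, against 10.7% of all genes higher and 12.6% lower. In CPM, 6 of the 9 had every Oxy@Lipo/Gel library above every control (12.2% of all genes did), and in FPKM 4 of the 9 did (11.8%). The difference between both scales concerns ADRB1 and VIPR1. DESeq2, run as an alternative, called CHRM1, CHRM2, CHRM3, ADRA1A, VIPR2 and TACR1 higher, which is 6 of the 9, where it called 6.72% of its genes higher. Without Oxy@Lipo/Gel replicate 1, edgeR called 5 of the 9 higher, those named for DESeq2 except CHRM1, against 2.74% of all genes. With any other single library left out it called 0 of the 9. The median log2 fold change was 3.03 over the 9 receptor genes and -0.04 over all genes tested. The 9 genes were chosen with earlier results of these data known, so these shares and medians describe the set and do not test it.

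**Figure D2:**
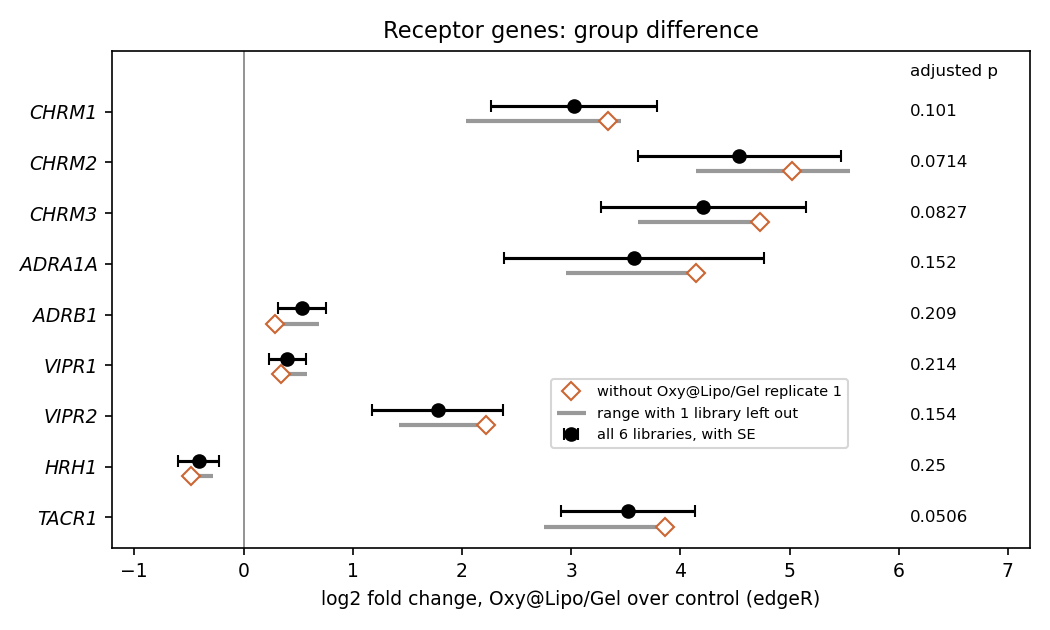
Log2 fold change of each receptor gene, Oxy@Lipo/Gel over control, from edgeR on all 6 libraries (filled points, with SE), without Oxy@Lipo/Gel replicate 1 (open diamonds) and as a range with each single library left out (grey bars); edgeR adjusted p-values over all genes stand at the right. CHRM2 and CHRM3 lie above 3 in each of these fits, and ADRB1, VIPR1 and HRH1 lie within 1 of 0.

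Among the muscarinic receptors, CHRM2, the Gi-coupled M2 receptor gene, measured 0.870, 0.204 and 0.238 CPM in control replicates 1, 2 and 3, and 2.24, 13.9 and 16.1 CPM in Oxy@Lipo/Gel replicates 1, 2 and 3. Control replicates 2 and 3 rested on 3 and 5 counts, and every Oxy@Lipo/Gel library lay above every control. The edgeR adjusted p was 0.0714. It was 0.0232 without Oxy@Lipo/Gel replicate 1 and ran up to 0.273 with another library left out. CHRM3, the M3 receptor gene that carries most of the contractile response to acetylcholine, measured 2.70, 1.02 and 1.62 CPM in the controls and 4.44, 39.6 and 56.5 CPM in the Oxy@Lipo/Gel libraries. Again the groups did not overlap, and Oxy@Lipo/Gel replicate 1 lay nearer to the controls than to replicates 2 and 3. Its edgeR adjusted p was 0.0827. This became 0.0191 without Oxy@Lipo/Gel replicate 1 and up to 0.287 with another library left out.

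CHRM1, the M1 receptor gene of glands and ganglia, showed another pattern, with 0.740, 0.272 and 1.09 CPM in the controls and 3.03, 2.91 and 11.8 CPM in the Oxy@Lipo/Gel libraries. Here Oxy@Lipo/Gel replicates 1 and 2 were alike and replicate 3 was the highest. Its log2 fold change was 3.03 ± 0.76 (edgeR adjusted p = 0.101). The proportion of the M2 to the M3 gene was compared next. The within-library difference of CHRM2 minus CHRM3 on the log2(FPKM + 0.1) scale was -0.57 ± 0.24 in the controls and -0.35 ± 0.40 in the Oxy@Lipo/Gel libraries (exact permutation test, two-sided, p = 0.5). With 3 libraries against 3 this test cannot go below 0.10. The direction of this small difference changed with a pseudocount of 1, where it was -0.19, in place of 0.21, and with a pseudocount of 0.01 it was 0.68. The M4 and M5 genes CHRM4 and CHRM5 were too low to be tested, at 2 to 17 and 0 to 5 counts per library.

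Among the adrenergic receptors, ADRA1A, an alpha-1 receptor gene of contractile tissue, measured 3.70, 0.747 and 2.38 CPM in the controls and 1.41, 34.4 and 47.7 CPM in the Oxy@Lipo/Gel libraries. Oxy@Lipo/Gel replicate 1 lay inside the control range, and replicates 2 and 3 lay far above it. The log2 fold change was 3.58 ± 1.19 (edgeR adjusted p = 0.152). That p was 0.0302 without Oxy@Lipo/Gel replicate 1 and up to 0.41 with another library left out. ADRB1, the beta-1 receptor gene known from the heart and from airway glands, measured 27.1, 24.0 and 29.2 CPM in the controls and 51.1, 35.1 and 30.5 CPM in the Oxy@Lipo/Gel libraries. Its groups were separated in CPM by the gap from 29.2 to 30.5 only, and they overlapped in FPKM, at 8.31, 6.11 and 9.28 in the controls and 16.7, 10.5 and 8.37 in the Oxy@Lipo/Gel libraries. The log2 fold change was 0.54 ± 0.22 (edgeR adjusted p = 0.209), and 0.29 without Oxy@Lipo/Gel replicate 1, the library with the highest level.

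Of both VIP receptor genes, VIPR1 encodes VPAC1, found in epithelium, glands and lymphocytes, and VIPR2 encodes VPAC2, found in smooth muscle. VIPR1 measured 20.1, 23.4 and 23.8 CPM in the controls and 31.6, 24.7 and 32.2 CPM in the Oxy@Lipo/Gel libraries, a log2 fold change of 0.40 ± 0.17 (edgeR adjusted p = 0.214). Its groups were separated narrowly in CPM and overlapped in FPKM. VIPR2 measured 5.05, 3.60 and 6.52 CPM in the controls and 4.98, 22.1 and 25.4 CPM in the Oxy@Lipo/Gel libraries. As for ADRA1A, Oxy@Lipo/Gel replicate 1 lay within the control range and replicates 2 and 3 well above it. The log2 fold change of VIPR2 was 1.78 ± 0.60 (edgeR adjusted p = 0.154). That p was 0.0259 without Oxy@Lipo/Gel replicate 1 and up to 0.428 with another library left out. VIPR2 minus VIPR1 was -2.55, -3.16 and -2.46 on the log2(FPKM + 0.1) scale in the controls, and -3.22, -0.84 and -1.02 in the Oxy@Lipo/Gel libraries. VIPR1 was thus the more abundant receptor gene in each library, by the smallest margin in Oxy@Lipo/Gel replicates 2 and 3, and the group difference of 1.03 had an exact permutation p of 0.4 (two-sided). That difference was 1.79 without Oxy@Lipo/Gel replicate 1, 0.60 without Oxy@Lipo/Gel replicate 2 and 0.56 with a pseudocount of 1.

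HRH1, the histamine H1 receptor gene, was the only member with a negative fold change. It measured 23.1, 15.8 and 19.5 CPM in the controls and 15.9, 14.5 and 13.6 CPM in the Oxy@Lipo/Gel libraries, and the groups overlapped by control replicate 2 alone. The log2 fold change was -0.41 ± 0.19 (edgeR adjusted p = 0.25). In the RefSeq annotation of the assembly T2T-MMU8v2.0 this gene overlaps the protein-coding gene ATG7, and whether the authors counted by strand is not given in the sources used here, so that some counts of both genes may be shared. TACR1, the gene of the NK1 receptor that binds substance P from sensory nerves, measured 0.435, 0.543 and 0.618 CPM in the controls and 2.91, 4.30 and 11.3 CPM in the Oxy@Lipo/Gel libraries. The controls lay within a narrow range at 8 to 13 counts each, and the lowest Oxy@Lipo/Gel library held 70 counts. The log2 fold change was 3.52 ± 0.61, and the adjusted p of 0.0506 in edgeR became 0.038 without a filter on low counts and 0.0266 without Oxy@Lipo/Gel replicate 1. It ran up to 0.189 with another library left out.

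Library profiles of the receptor genes were described by log2 CPM relative to the mean of the 6 libraries. CHRM2, CHRM3 and ADRA1A were nearest, of 14 cell type marker lists, to the mean profile of smooth muscle genes, at root mean square distances of 0.90, 0.70 and 0.85. The gland list was almost as near to CHRM2, at 1.02, and lay at 1.01 from CHRM3 and 1.43 from ADRA1A. The smooth muscle list had 20 of 20 genes tested and none at 0 in any library. It lay at -0.50, -1.30 and -1.85 in the controls and at -0.82, 2.02 and 2.45 in the Oxy@Lipo/Gel libraries. Its median log2 fold change was 2.72, and 0 of 20 genes passed edgeR, where 0.851% of all genes passed as higher. DESeq2 called 18 of 20 higher (6.72% of its genes), and edgeR without Oxy@Lipo/Gel replicate 1 called 15 (2.74% of all genes). VIPR2 was also high in Oxy@Lipo/Gel replicates 2 and 3, and it was nearest to the Schwann cell list, at a distance of 0.31. That list, 12 of 12 genes tested and none at 0, lay at -1.11, -0.99 and 0.16 in the controls and at -0.63, 1.13 and 1.44 in the Oxy@Lipo/Gel libraries, and its summed level was 177 to 266 CPM and 222 to 454 CPM.

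CHRM1 and TACR1 were nearest to the submucosal gland list, at distances of 0.47 and 0.46. That list lay at -0.90, -1.91 and -1.46 in the controls and at 0.99, 1.06 and 2.21 in the Oxy@Lipo/Gel libraries, and its summed level was 1711 to 2536 CPM in the controls and 10380 to 31173 CPM in the others. Of its 16 genes, 11 were tested, and 4 passed edgeR as higher, where 0.851% of all genes did. Of the tested genes 9 had a positive and 2 a negative log2 fold change, AQP5 at -0.60 and SLC12A2 at -0.20. LYZ and DMBT1 made up most of the sum in Oxy@Lipo/Gel replicate 3, at 15849 and 12293 CPM. ODAM, BPIFA2, MUC7 and TCN1 had 0 counts in at least 1 control. ADRB1, VIPR1 and HRH1 were flat and had no list with a like pattern of any size, the nearest by distance being mast cell genes at 0.40, 0.41 and 0.48, of which 5 of 10 were tested and 0 passed, with a sum of 45.1 to 91.2 CPM in the controls and 43.2 to 69.1 CPM in the others. The choice among the lists was made after the values were seen. The part that the amounts of smooth muscle, gland or nerve sheath in each piece of tissue had in these receptor values was not tested.

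**Figure D3:**
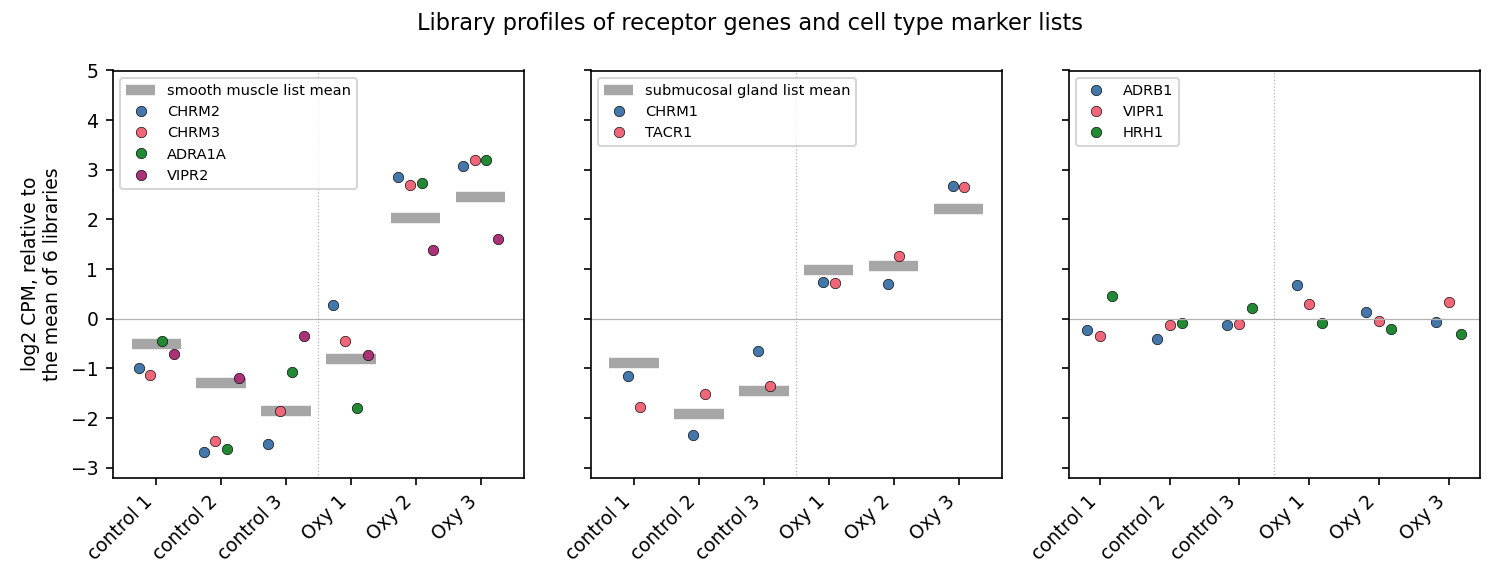
Log2 CPM of the receptor genes in each library relative to their mean over the 6 libraries (points), with the mean of the smooth muscle list (left, grey bars) and of the submucosal gland list (middle, grey bars). In the left panel CHRM3, ADRA1A and VIPR2 lie nearer to the controls than to Oxy@Lipo/Gel replicates 2 and 3 in Oxy@Lipo/Gel replicate 1, where CHRM2 lies about midway, in the middle panel it lies with Oxy@Lipo/Gel replicate 2, and in the right panel ADRB1, VIPR1 and HRH1 stay within 1 of 0.

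The receptors were also set against the mean of the smooth muscle list within each library. CHRM2 lay at -6.46, -7.35 and -6.64 log2 units from the smooth muscle mean in the controls and at -4.86, -5.13 and -5.35 in the Oxy@Lipo/Gel libraries. CHRM3 lay at -4.93, -5.45 and -4.28 in the controls and at -3.91, -3.62 and -3.54 in the Oxy@Lipo/Gel libraries. The groups did not overlap for either gene against the mean of the list. The share of all genes with such a separation was not counted, and no such difference was taken against single genes of the list. Single smooth muscle genes had log2 fold changes of 1.46 to 5.00. Only ACTC1, at 5.00, lay above CHRM2 and CHRM3, and KCNMB1 came next at 3.75. For ADRA1A the same difference was -4.70 ± 1.07 in the controls and -4.37 ± 0.98 in the Oxy@Lipo/Gel libraries, and for VIPR2 it was -3.37 ± 0.91 and -4.30 ± 0.49, and in both genes the groups overlapped. HRH1 was lower relative to the mean of the list in each Oxy@Lipo/Gel library, at -1.42 ± 0.58 against -4.25 ± 1.89. These differences use log2 CPM with a prior count of 2, which raises the lowest values, such as CHRM2 in control replicates 2 and 3.

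For each receptor the 2 genes with the nearest library profile among 14720 tested genes with a symbol, the 9 receptors left out, were found by the same distance. Among the receptors themselves, CHRM2 and CHRM3 lay at 0.43 from each other, ADRB1 and VIPR1 at 0.27, and CHRM1 and TACR1 at 0.56. CHRM3 was nearest to CPXM2 (0.25) and to KCNMB1 (0.37), which encodes a potassium channel subunit of smooth muscle. CHRM2 was nearest to NRXN3 (0.39), a synaptic adhesion gene, and to S1PR3 (0.52), a sphingosine-1-phosphate receptor gene. CHRM1 was nearest to the matrix protease gene MMP7 (0.31) and the carbonic anhydrase gene CA2 (0.37), and TACR1 to BHLHA15 (0.26), a transcription factor gene of secretory cells, and to the organic cation transporter gene SLC22A3 (0.34). Of these, CA2 and BHLHA15 passed edgeR as higher (adjusted p = 0.0479 and 0.0433). ADRA1A had no near neighbour, with ASMT and SMPX at 0.61 and 0.63. The flat genes were nearest to MCCC2 and FAM174B for ADRB1, RFFL and TMEM191C for VIPR1, and CD9 and SUGT1 for HRH1, at 0.0339 to 0.0928, and VIPR2 was nearest to FADS2 (0.0974) and HOXC5 (0.10).

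Of 167 further genes of these signalling pathways in 8 lists, 141 were tested, 1 passed edgeR as higher and 0 as lower, and the median log2 fold change was 0.26. This share lies near the 0.851% of all genes that passed as higher. At an unadjusted p of 0.05, 26 of 141 were higher and 13 lower, where 10.7% of all genes were higher and 12.6% lower. DESeq2 called 21 higher and 6 lower, where it called 6.72% of its genes higher and 5.05% lower. The gene that passed was MME, neprilysin, which cleaves substance P and other peptides. MME rose from 2.87, 2.65 and 3.76 CPM in the controls to 9.88, 8.05 and 12.8 CPM in the Oxy@Lipo/Gel libraries, a log2 fold change of 1.72 ± 0.28 (edgeR adjusted p = 0.0433). With each library left out in turn its adjusted p was 0.0549 to 0.172, so the call rested on all 6 libraries.

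In the tachykinin and histamine list 1 of 6 tested genes passed, and the median was 1.52. TACR2, the gene of the NK2 receptor that contracts airway muscle, measured 3.48, 2.44 and 2.81 CPM in the controls and 6.02, 30.3 and 40.3 CPM in the Oxy@Lipo/Gel libraries (edgeR adjusted p = 0.078). TAC1, which encodes substance P, was too low to be tested, at 29 counts in control replicate 3 and 1 to 3 counts in the others. In the cholinergic list 0 of 8 passed with a median of 0.02. CHRNA3, a nicotinic subunit of autonomic ganglia, had 0.684 ± 0.253 and 2.48 ± 0.418 CPM (edgeR adjusted p = 0.0712). SLC18A3, the vesicular acetylcholine transporter gene, had 2, 0 and 3 counts in the controls and 12, 40 and 59 in the Oxy@Lipo/Gel libraries (edgeR adjusted p = 0.0811). In the adrenergic list 0 of 11 passed with a median of 0.05, and MAOB, a monoamine oxidase gene, measured 10.1 ± 2.13 and 47.7 ± 32.6 CPM.

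In the list of VIP and PACAP 0 of 6 passed with a median of 0.57. VIP, the neuropeptide gene itself, measured 0.261, 0.0679 and 1.38 CPM in the controls and 1.62, 6.36 and 19.9 CPM in the Oxy@Lipo/Gel libraries (edgeR adjusted p = 0.135). RAMP2, whose product associates with VPAC1 and with the adrenomedullin receptor, measured 110 ± 14.3 and 60.3 ± 18.6 CPM (edgeR adjusted p = 0.131). Genes of autonomic and sensory neurons, 13 of 16 tested and 0 past the threshold, summed to 47.5, 20.6 and 272 CPM in the controls and 34.8, 62.8 and 105 CPM in the Oxy@Lipo/Gel libraries, with PHOX2A, ELAVL4 and HAND2 at 0 counts in control replicate 2. Their part in the values of VIP, SLC18A3 and CHRNA3 was not tested.

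Among the other bronchoactive receptors 0 of 30 passed, with a median of 0.23. Both bradykinin receptor genes were lower in each Oxy@Lipo/Gel library, the inducible BDKRB1 at 5.61, 10.4 and 2.85 CPM against 0.872, 0.674 and 0.858 CPM, and the constitutive BDKRB2 at 20.5, 13.2 and 20.1 CPM against 7.51, 7.12 and 5.95 CPM. Their log2 fold changes were -2.96 ± 0.52 and -1.39 ± 0.24, with edgeR adjusted p-values of 0.053 and 0.0501. In CPM, lower values without overlap of the groups were found for 4 of these 30 genes and for 3308 of all 18676 tested. In the list of Gq, calcium and kinase genes 0 of 29 passed with a median of 0.39. PPP1R12B, a regulatory subunit of myosin phosphatase, had 51.2 ± 10.9 and 373 ± 252 CPM, and the L-type calcium channel gene CACNA1C had 7.59 ± 1.67 and 51.1 ± 38.6 CPM (edgeR adjusted p = 0.0894 and 0.105). In the list of Gs, cyclic AMP and Gi genes 0 of 33 passed with a median of 0.16, and the smallest p-values belonged to the phosphodiesterase gene PDE3A, at 15.4 ± 3.84 and 42.3 ± 11.9 CPM, and the adenylyl cyclase gene ADCY5, at 14.6 ± 8.04 and 95.0 ± 70.1 CPM. In the list of receptor kinases, arrestins and RGS proteins 0 of 18 passed with a median of 0.06. RGS9 had 5.62 ± 1.19 and 11.3 ± 0.702 CPM and RGS6 3.55 ± 1.31 and 15.5 ± 10.4 CPM, both encoding proteins that shorten G protein signalling.

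**Figure D4:**
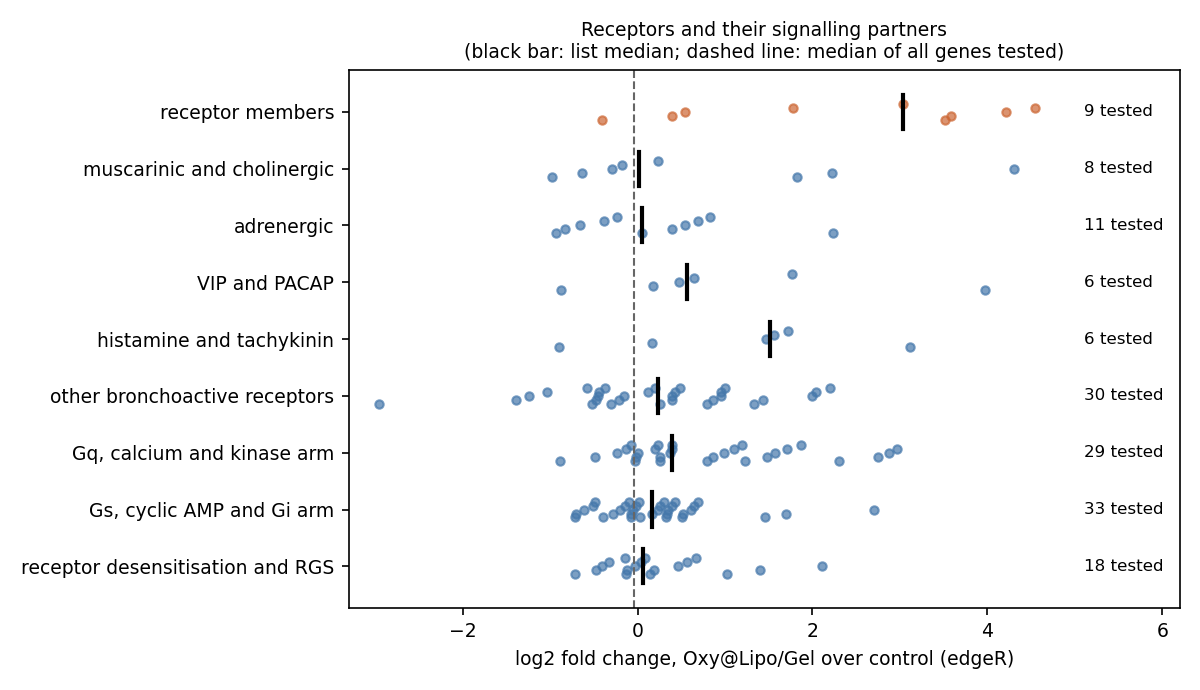
Log2 fold change, Oxy@Lipo/Gel over control, of each tested gene (points) in the receptor set (orange) and in 8 lists of signalling partners (blue), with the list median as a black bar and the median of all genes tested, -0.04, as a dashed line. The medians of the 8 partner lists lie between 0.02 and 1.52, and that of the 9 receptor genes lies at 3.03. Receptors and partner lists were chosen with earlier results of these data known.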

How the data were processed

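The deposited table holds whole-number read counts per gene. The authors deposited FPKM in a second table. Counts, library totals and FPKM together gave 1 whole gene length (within 0.01 base) for 17796 of 17796 genes that reached 5 counts throughout, so both tables carry the same measurement. Per the labels' protocols, libraries were poly(A)-selected, dUTP-stranded and paired-end. Which aligner, counting program and strand setting the authors used is not given in the sources used here. The submitters' processing notes name GRCm38, rheMac8 and Mmul_8.0.1 without a role. No sequences were used, and gene positions served only to find the gene overlaps.

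Groups were compared over all genes with edgeR 4.0.16 (R 4.3.3; quasi-likelihood F test, TMM, filterByExpr with a count of at least 10 and a total of at least 15, Benjamini-Hochberg at 0.05). Each SE is the absolute log2 fold change over the root of its F statistic. CPM use TMM library sizes. Subtype pairs used log2(FPKM + 0.1) and scipy 1.17.1. Profile distances are root mean square differences of centred log2 CPM. Alternatives used DESeq2 1.42.0, limma 3.58.1, other size factors, filters and pseudocounts, a replicate block, and fits leaving out 1 library at a time. Gene overlaps were found from gene positions in the RefSeq annotation of T2T-MMU8v2.0. The count test was tested on simulated data. Figures were drawn with matplotlib 3.10.9.

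Receptors and lists were chosen with earlier results of these data known. Named genes are the 9 receptors, in each list those past the threshold or, where fewer than 2 passed, the 2 with the smallest p, and the 2 nearest profiles; 1 gene that this rule names is not reported here. CHRM4, CHRM5, TAC1, ATG7 and the marker genes at 0 counts were named after their values were seen. All replicate pairs differed beyond sampling noise, with a chi-square per degree of freedom of 49.95 or more. The limit of 3 counts covers counting error only.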

Additional observations from a re-analysis of the deposited data

How the results depend on the processing

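All 9 receptor genes kept their sign in the 15 alternatives, 135 of 135 values. Their count past the threshold was 0 higher and 0 lower, and became 1 higher without a filter on low counts (TACR1), 6 higher with DESeq2 and 5 higher without Oxy@Lipo/Gel replicate 1; the range with a library left out was 0 to 5 higher, and it stayed at 0 lower. Over all genes, 159 were higher and 128 lower; DESeq2 called 1404 and 1056, the fit with the replicate block 0 and 0 (2866 at an unadjusted p under 0.05), and fits with a library left out 0 to 521 higher and 0 to 107 lower, and 3 of these edgeR fits called 0 either way: those leaving out the first control (3189 genes at an unadjusted p under 0.05), the third control (4858) and the second Oxy@Lipo/Gel library (2271). In the pathway lists 1 gene passed, against 27 with DESeq2, 0 with the replicate block, and 0 to 19 with a library left out, 19 without Oxy@Lipo/Gel replicate 1. With the replicate block 0 receptor genes passed. Deviations of same-numbered libraries from their group means had correlations of 0.234, -0.35 and -0.162. With 3 libraries in each group these cannot tell whether the libraries were paired. The main fit did not take the numbers as pairs. The group difference of CHRM2 minus CHRM3, 0.21, was -0.19 with a pseudocount of 1, 0.68 with 0.01 and -0.00261 without Oxy@Lipo/Gel replicate 1, and ran up to 0.39 with other libraries left out. The cause of these shifts was not tested. CHRM1, CHRM2 and TACR1 had 3 to 23 counts in each control library, which limits their fold changes.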
